A study of Mus musculus with 20 samples.

Results

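The 10 genes described here (Pi16, Dpp4, Cd55, Dact2, Krtdap, Sbsn, Dmkn, Sema3c, Akr1c18 and Ly6a) are identity genes of ASC2, 1 of the subtypes of adipose stromal cell (ASC) in mouse interscapular brown adipose tissue (iBAT). They were taken by their symbols from the 31053 genes listed for each library, and each symbol was found once. Their levels were read in the 10 single-cell RNA-seq libraries of the lineage-marker-negative (Lin-) fraction, which is depleted of immune cells with magnetic beads. Vascular endothelial cells (VECs) of the same libraries served as the measure of cell-free RNA, with limits for Ly6a and Cd55 that are given below. The genes also stand in the marker lists that the study derived for ASC2 from these samples, so their height in that class is a description and not a test.

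The male C57BL/6J mice were housed at 24 °C according to the labels (RT), moved to 6 °C for 4 days (COLD), or given CL316,243, which stimulates the β3 adrenergic receptor, by infusion at 0.75 nmol/h over 4 days (CL), with 2 Lin- libraries per group. Female mice of an Adrb1 line, all given tamoxifen, were either Adrb1 fl/fl; Pdgfra-CreER -/- (WT) or Adrb1 fl/fl; Pdgfra-CreER +/- (KO), with 1 library each at RT and after 4 days at 6 °C. The Cre of the KO mice is driven by Pdgfra, which ASCs express. All mice were 8 to 14 weeks old, and each library pooled 3 to 4 of them, so a library and not a mouse is the replicate. Both RT libraries of the Adrb1 line were made with version 3 of the Chromium kit and the other 8 with version 2. In that line temperature and kit version therefore cannot be told apart.

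Of 89637 Lin- barcodes, 66339 passed the study's limits, with 7857161 to 31325800 counts in a library and a median of 1204 to 3881 counts per cell. RT replicate 2 kept 28.0% of its barcodes, because 72.0% carried 10% or more mitochondrial counts, and it had the lowest total. CL replicate 1 held 5570 VEC-like cells against 296 in CL replicate 2, and 28.4% of its stromal cells lay in unnamed clusters. In the WT RT library, 17.2% of stromal cells belonged to an ASC2-like cluster (775 cells over all libraries, led by Col6a5, Mrgprg and Duox2) that held almost no C57BL/6J cells. Pairs of libraries shared 0 to 193 barcodes, at most 2.04% of the smaller library. In the KO libraries, Adrb1, the targeted gene, gave 1 count (RT) and 4 counts (COLD) in the ASC1-like sums, compared with 12 and 48 counts in the WT libraries. In the ASC2-like sums it gave 0 to 3 counts in every library, so the deletion could not be checked in the cells that carry the 10 genes.

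Adipose depots hold several kinds of PDGFRA-positive fibroblast. ASC2 correspond to the interstitial or adventitial type that is found in many organs in the fascia and around larger vessels, and in white fat such cells lie upstream of committed preadipocytes. ASC1 lie in the parenchyma and are the cells that become brown adipocytes after adrenergic stimulation. Of the 10 genes, several act at the cell surface. Dpp4 encodes a membrane-bound dipeptidyl peptidase, Cd55 the decay-accelerating factor that limits complement, Pi16 a peptidase inhibitor of the CAP family, and Ly6a the GPI-anchored stem cell antigen Sca-1. Sema3c encodes a secreted semaphorin that signals through neuropilins and plexins, and Dact2 an intracellular modulator of Wnt and TGFβ signalling. Akr1c18 encodes 20α-hydroxysteroid dehydrogenase, which inactivates progesterone. Sbsn, Dmkn and Krtdap encode secreted proteins best known from the differentiating layers of the epidermis.

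Sbsn, Dmkn and Krtdap are neighbours in 1 stretch of chromosome 7. In the GRCm38.p6 annotation of RefSeq, Sbsn spans chr7:30732674-30756134, Dmkn chr7:30763756-30781066 and Krtdap chr7:30787905-30791089, all on the plus strand. The 3 genes cover 58416 bases from the first to the last, with gaps of 7621 and 6838 bases between them. The other 7 genes lie apart: Pi16 (29318796 to 29328903) and Dact2 (14195230 to 14204327) on chromosome 17, Dpp4 on chromosome 2, Cd55 on chromosome 1, Sema3c on chromosome 5, Akr1c18 on chromosome 13 and Ly6a on chromosome 15.

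The promoters of the 3 neighbours are shown because the genes are adjacent and all stood highest in ASC2-like cells, and that of Pi16 is shown as the gene most used to mark these cells. Each stretch is on the plus strand and runs from 250 bases before a RefSeq start site to 20 bases after it. The start sites used for Sbsn and Pi16 lie inside the annotated span of the gene. Dmkn has 3 start sites in this table, and the first is shown. Capitals mark matches to TGANTCA (a pattern that includes the core of the AP-1 motif but is wider), TATAAA or CCAAT, which were searched on both strands together with GGGCGG. The positions are chr7:30751221-30751490 for Sbsn, chr7:30763506-30763775 for Dmkn, chr7:30787655-30787924 for Krtdap and chr17:29318632-29318901 for Pi16.
Sbsn: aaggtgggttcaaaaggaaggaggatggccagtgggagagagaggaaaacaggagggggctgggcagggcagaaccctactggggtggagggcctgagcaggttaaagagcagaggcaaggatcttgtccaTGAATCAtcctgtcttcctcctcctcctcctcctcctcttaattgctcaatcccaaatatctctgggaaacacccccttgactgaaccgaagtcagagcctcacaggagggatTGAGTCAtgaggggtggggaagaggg
Dmkn: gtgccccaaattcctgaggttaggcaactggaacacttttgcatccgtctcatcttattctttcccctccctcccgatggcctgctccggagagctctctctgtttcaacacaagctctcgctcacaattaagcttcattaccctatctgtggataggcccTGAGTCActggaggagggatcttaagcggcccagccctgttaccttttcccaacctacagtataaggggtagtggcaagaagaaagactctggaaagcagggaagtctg
Krtdap: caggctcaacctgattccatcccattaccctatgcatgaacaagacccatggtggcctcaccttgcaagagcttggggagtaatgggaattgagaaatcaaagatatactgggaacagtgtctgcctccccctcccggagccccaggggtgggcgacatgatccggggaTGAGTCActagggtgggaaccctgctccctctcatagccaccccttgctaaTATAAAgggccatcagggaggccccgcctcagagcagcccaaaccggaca
Pi16: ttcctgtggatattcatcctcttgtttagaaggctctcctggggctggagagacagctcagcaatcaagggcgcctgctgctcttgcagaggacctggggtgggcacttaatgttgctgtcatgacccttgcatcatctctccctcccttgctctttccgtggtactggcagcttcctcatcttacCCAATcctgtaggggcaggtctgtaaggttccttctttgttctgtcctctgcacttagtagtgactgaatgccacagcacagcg
Windows of 300 bases (250 before and 50 after the start) were at hand for 9 of the 10 genes. TGANTCA was found in all 5 windows of the 3 neighbours, at -119 and -6 from the start for Sbsn, at -89, -91 and -82 in the windows of Dmkn, and at -81 for Krtdap. The windows of Dmkn that start at 30763506 and 30763508 overlap, and their matches at -89 and -91 are the same site. None of the windows of the other 6 genes held it, whereas 7.81% of all 32851 windows did. TATAAA was found for Krtdap (at -30) and Dpp4 (at -227), and in 13.6% of all windows. GGGCGG was found for Cd55, Dact2, Sema3c and Akr1c18 (35.7% of all windows) and CCAAT for Pi16 and Krtdap (37.4%). Such a match is a description of the sequence and shows no binding. Since the libraries tag the 3′ ends of mRNAs, they cannot tell which of the start sites of Dmkn was used.

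Cells were clustered without the 10 genes, the other naming markers and mitochondrial genes (126 genes in all), and the clusters were named from marker lists. This gave 41478 stromal cells, of which 13203 were ASC2-like, 16661 ASC1-like, 6513 ASC3-like and 1520 proliferating. The rest lay in 4 unnamed stromal clusters. The counts of each class were summed within each library, and a gene's share of that sum is given in the usual unit CPM, which scales every sum to the same total.

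All 10 genes had their highest median level in ASC2-like cells, although for Ly6a an unnamed stromal cluster was within the spread between libraries, and in each of the 10 libraries each gene was higher there than in ASC1-like, ASC3-like, VEC-like, mural, Schwann and immune cells. The level of Pi16 in ASC2-like cells ran from 2182 to 10090 CPM, with a median of 7099. Its median was 783.6 CPM in ASC3-like cells, 57.8 CPM in ASC1-like cells and 44.7 CPM in VEC-like cells. The ASC1-like level of Pi16 was thus of the order of the cell-free RNA measured in VECs.

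**Figure D1:**
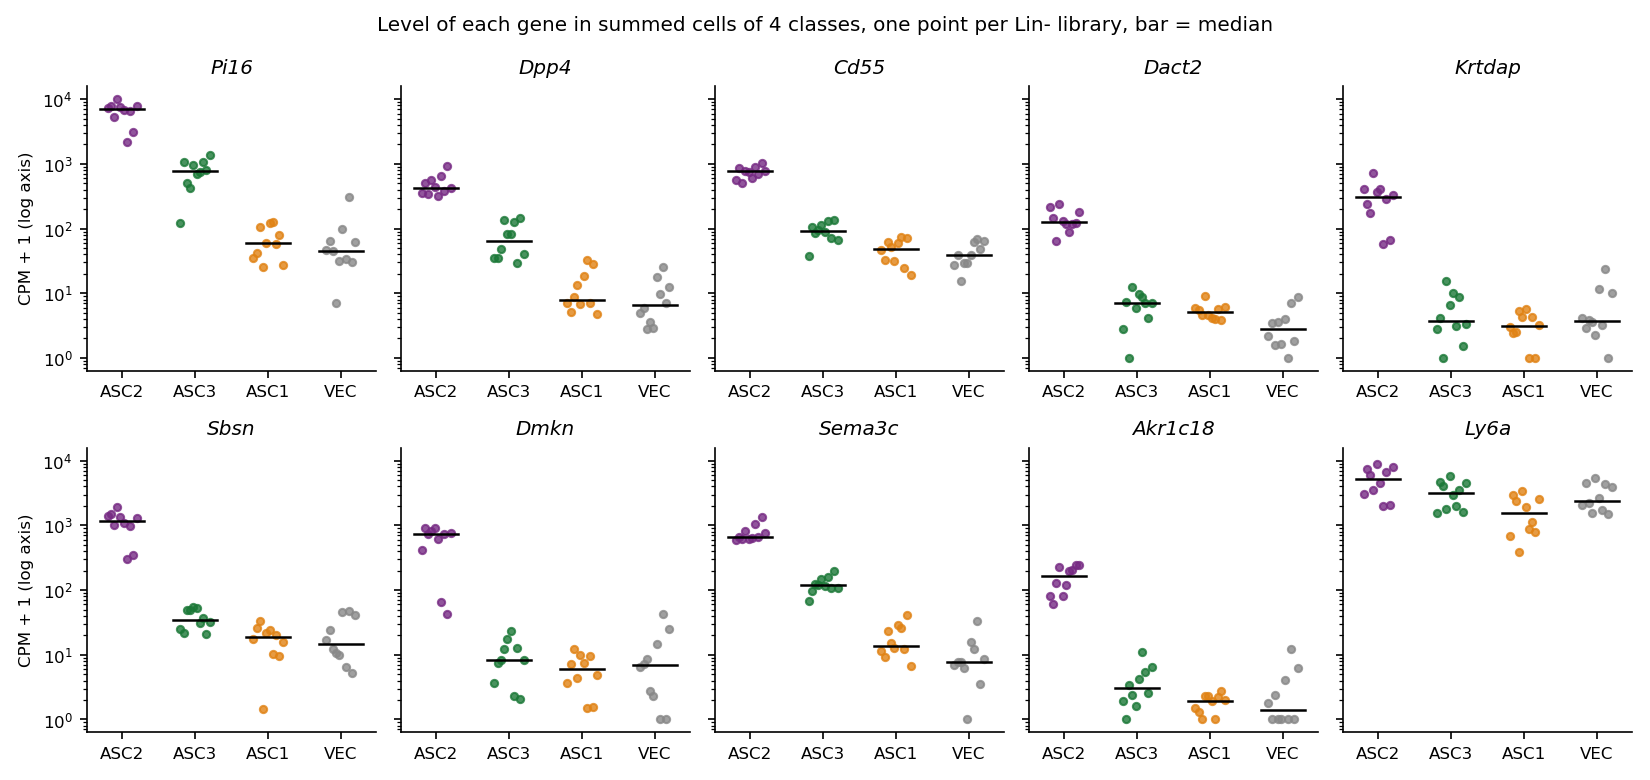
Levels of the 10 genes in ASC2-like, ASC3-like, ASC1-like and VEC-like cells, with 1 panel per gene. The y axis is CPM + 1 on a log scale, each point is 1 of the 10 Lin- libraries and the bar is the median; Pi16 had medians of 7099, 783.6, 57.8 and 44.7 CPM in the 4 classes, and Ly6a is the gene whose classes lie closest together.

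The ratio of the median levels in ASC2-like and ASC1-like cells was highest for Akr1c18 (168), Krtdap (144), Dmkn (144) and Pi16 (123). It was 61.8 for Dpp4 and 30.7 for Dact2. The ratio of Akr1c18 and its rank are imprecise, because its ASC1-like means were 0.883 (RT), 0.80 (COLD) and 0.464 CPM (CL). Cd55 had the smallest of these ratios outside Ly6a, 15.9, with an ASC1-like median of 48.0 CPM. ASC2-like cells contributed a median of 95.1% of all stromal counts of Krtdap, 92.0% of Dmkn, 91.6% of Akr1c18, 90.3% of Dact2, 87.5% of Sbsn and 86.2% of Pi16. For Sema3c, Dpp4 and Cd55 the contribution was 82.5%, 80.4% and 78.9%. It was lowest in CL replicate 1 for Dpp4 (53.9%), Sbsn (54.1%), Dmkn (56.0%), Cd55 (56.6%), Sema3c (58.5%) and Akr1c18 (60.1%), the library with many cells in unnamed stromal clusters.

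In ASC3-like cells the genes stood at different fractions of their ASC2-like level. The median was 14.8% for Sema3c (11.1% to 24.0%), 14.6% for Dpp4 (6.78% to 25.2%), 13.1% for Pi16 (1.65% to 34.4%) and 12.6% for Cd55 (6.46% to 16.7%). For Dact2 and Sbsn the median was 4.08% and 3.88%. For Dmkn, Akr1c18 and Krtdap it was 1.52%, 1.5% and 1.41%. In VEC-like cells, the same percentage had medians of 0.484% (Akr1c18) to 4.64% (Cd55) for the 9 genes other than Ly6a. Over all libraries, Cd55 ran from 14.1 CPM (1.3% of cells) to 138.4 CPM (23.4%) between the VEC-like clusters. Its VEC-like level may therefore hold more than cell-free RNA, which was not tested. Krtdap had nearly the same median in VEC-like cells (1.22%) as in ASC3-like cells, whereas for Dmkn it was 0.851% and for Sema3c 1.02%. In thinned cells, Sema3c, Dpp4, Pi16 and Cd55 were detected in a higher share of ASC3-like than of VEC-like cells in 10 of 10 libraries, Sbsn in 8, Dact2 in 7, Dmkn in 6, Akr1c18 in 5 and Krtdap in 4.

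**Figure D2:**
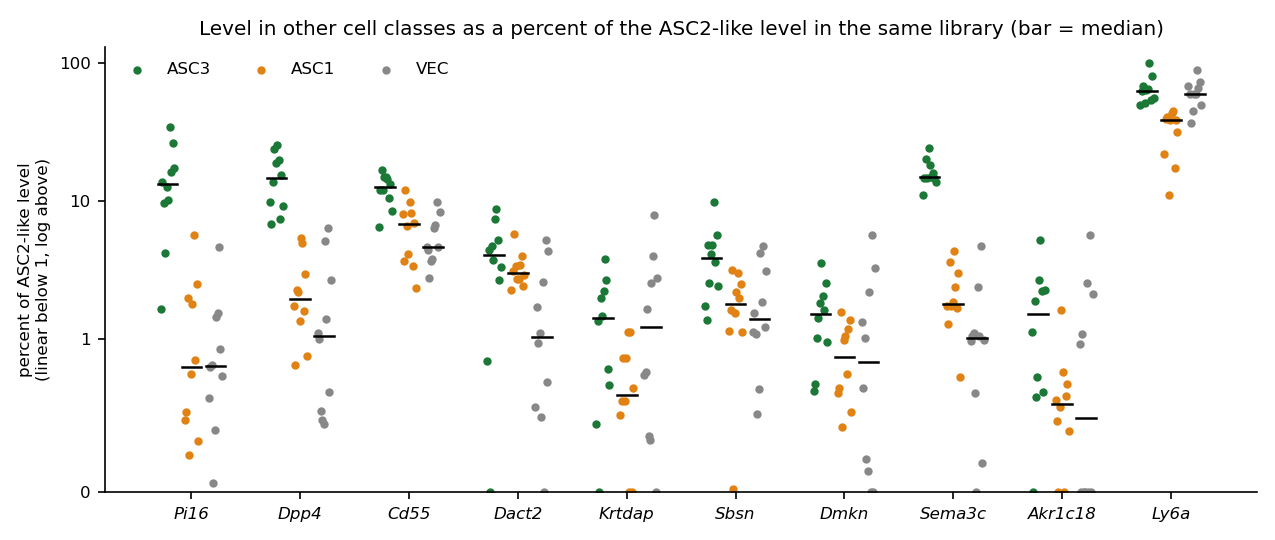
Level of each gene in ASC3-like, ASC1-like and VEC-like cells as a percentage of its ASC2-like level in the same library. Points are the 10 Lin- libraries, bars are medians, and the axis is linear below 1% and logarithmic above; Sema3c, Dpp4, Pi16 and Cd55 stand at 12.6% to 14.8% in ASC3-like cells, Krtdap, Akr1c18 and Dmkn near 1.5%, and Ly6a at 62.9%.

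Ly6a differed from the other 9 genes. Its median level was 5220 CPM in ASC2-like cells, 3210 CPM in ASC3-like cells, 1539 CPM in ASC1-like cells and 2421 CPM in VEC-like cells, and endothelial cells are known to express it. VEC-like cells are therefore no measure of cell-free RNA for Ly6a. In mural cells it was lower, 38.4 to 384.1 CPM with a median of 172.5 CPM. In the unnamed cluster led by Cthrc1 and Lrrc15, Ly6a had a median of 5164 CPM over 4 libraries. It was higher there than in ASC2-like cells in CL replicate 2 (5624 and 4509 CPM) and WT RT (2076 and 1973 CPM), and lower in CL replicate 1 (4704 and 5932 CPM) and WT COLD (6059 and 6571 CPM). ASC2-like cells contributed 39.6% of its stromal counts (median). Ly6 genes and Akr1c genes are families of similar copies, and counting of Ly6a and Akr1c18 may share reads with their relatives.

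Some of the genes were also measured outside the main stromal classes. The unnamed cluster led by Cthrc1 and Lrrc15 had medians over 4 libraries of 362 CPM for Pi16, 353.7 CPM for Sema3c, 314.2 CPM for Cd55 and 250.2 CPM for Dmkn. The unnamed cluster led by Cilp and Thbs4 held Pi16 at a median of 786.5 CPM, Sema3c at 181.2 CPM and Dpp4 at 164.7 CPM, but Krtdap at only 1.73 CPM. Another unnamed stromal cluster, of 601 cells, was second to ASC2-like cells for Pi16 (median 1641 CPM), Krtdap (94.9 CPM) and Dact2 (28.4 CPM). It had enough cells in COLD replicate 1 and CL replicate 1 only, with Pi16 at 1295 and 1987 CPM. Sema3c stood at a median of 128.5 CPM in Schwann-like cells (64.4 to 184.9 CPM). Sbsn stood apart in 182 cells of a cluster with Chodl, Myf5 and Pax7, genes of muscle progenitors. There it reached 470.8 CPM and was detected in 33.5% of cells, whereas Krtdap was at 0 and Pi16 at 2.37 CPM. In the immune cells of the Lin+ libraries, taken as cells with a Ptprc count, the median was 33.95 CPM for Dpp4, which T cells are known to carry, 40.7 CPM for Cd55 and 19.6 CPM for Pi16. Single Lin+ libraries varied, with Cd55 at 8.61 to 227 CPM and Dmkn at 0.578 to 177.2 CPM (median 7.95 CPM).

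Since Sbsn, Dmkn and Krtdap are epidermal genes, markers of keratinocytes were read in the ASC2-like sums. Krt5 was at 0 in all 10 libraries, Krt14, Krt15 and Trp63 were each at 0 in 8 libraries, and Krt1 in 6. Krt10 stood at 29.5 to 94.0 CPM. The genes that flank the 3 neighbours did not share their pattern. Tmem147 was at similar medians in ASC2-like and ASC1-like cells, 144 and 136 CPM. Gapdhs, whose model overlaps that of Sbsn, and Ffar3 had a median of 0 in both, and Ffar2 was at 0.0596 CPM in ASC2-like cells.

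For the share of cells in which each gene was detected, every cell was thinned to 1000 counts, and shallower cells were left out. Pi16 was detected in a median of 84.8% of ASC2-like cells (66.3% to 91.0%), 18.9% of ASC3-like cells (7.44% to 36.4%), 2.00% of ASC1-like cells and 2.67% of VEC-like cells (0.221% to 5.49%). The median share in ASC1-like cells was below that in VEC-like cells, although in 7 of 10 libraries the ASC1-like share was the higher of the pair. Before thinning, the median depth per library was 1441 to 4149 counts in ASC2-like cells and 641.2 to 2268 counts in VEC-like cells. In all stromal cells together the medians were 32.9% for Pi16, 19.1% for Sema3c, 18.2% for Cd55, 16.6% for Sbsn, 12.1% for Dpp4, 8.88% for Dmkn, 4.47% for Krtdap, 4.08% for Dact2 and 3.52% for Akr1c18. Each of these was above the share in VEC-like cells in 10 of 10 libraries, where the medians of the same genes were at most 3.55% (Cd55). Ly6a was detected in 69.3% of stromal and 71.8% of VEC-like cells.

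Within the ASC2-like class, thinned cells with Pi16 held each of the other genes in a higher share than those without it. Among ASC2-like cells with Pi16, a median of 55.3% held Sbsn, compared with 14.1% of those without it. The same pair of shares was 32.0% and 5.18% for Dmkn, 20% and 2.36% for Krtdap, 12.0% and 2.51% for Dact2, and 12.0% and 3.17% for Akr1c18. For Cd55 it was 51.8% and 24.9%, for Sema3c 48.6% and 25.3%, and for Dpp4 35.3% and 19.4%. The first share was the higher in 10 of 10 libraries for these 8 genes, and in 8 of 10 for Ly6a (93.3% and 87.3%). These are shares of the cells of 1 class and describe which genes were found in the same cells. The class joins clusters that differ in the level of Pi16, and the shares were not split by cluster.

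The first comparison asks whether 4 days of cold changed these genes in the stromal cells as a whole. In COLD, 8 of the 10 genes were lower in both libraries than in either RT library and Ly6a was higher in both, against 22.7% and 16.0% of all 13890 genes tested that lay apart in these directions. Pi16 was at 2289 and 3650 CPM in the RT libraries, compared with 1241 and 1334 CPM in the COLD libraries. The groups did not overlap, and the RT libraries differed from each other by more than the COLD libraries did. Krtdap was at 125.9 and 257.2 CPM in the RT libraries, compared with 38.4 and 63.1 CPM in the COLD libraries. Sbsn was at 449.2 and 674.3 CPM in the RT libraries, compared with 247.3 and 233.3 CPM in the COLD libraries. For both genes the lower RT library lay well above the higher COLD library. Dact2 was at 68.5 and 91.0 CPM in the RT libraries, compared with 24.97 and 24.2 CPM in the COLD libraries. Akr1c18 was at 25.5 and 81.8 CPM in the RT libraries, compared with 9.92 and 14.6 CPM in the COLD libraries. Dmkn was the exception among the neighbours on chromosome 7, because its COLD libraries (140.5 and 154.4 CPM) lay between the RT libraries (130.2 and 290 CPM).

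Of these differences, 1 of 10 passed the test over all genes (edgeR quasi-likelihood test with Benjamini-Hochberg adjustment), compared with 4.27% of all genes tested, so the count is no result about the 10 genes as a group. Akr1c18, the progesterone-inactivating enzyme, fell by 1.87 (SE 0.372) on the log2 scale with an adjusted p of 0.0444. With single libraries left out its log2 fold change ran from -2.29 (without RT replicate 1) to -1.27 (without RT replicate 2). With the replicate number as a block, which pairs libraries of the same experiment, 3 of 10 were called, compared with 11.3% of all genes: Akr1c18 (adjusted p = 0.00798), Dpp4 (log2 fold change -0.95, adjusted p = 0.0307) and Krtdap (-1.82, adjusted p = 0.0376). Without the block, DESeq2 called 7 of the 10 (9.13% of all genes) and library totals without TMM 8 (6.08%), whereas 0 were called once RT replicate 1, RT replicate 2, COLD replicate 1 or COLD replicate 2 was dropped. The log2 fold change without the block was -1.60 (SE 0.452) for Dact2, -1.11 (SE 0.296) for Sbsn, -1.08 (SE 0.661) for Pi16, -1.02 (SE 0.277) for Sema3c, -0.61 (SE 0.297) for Cd55 and -0.33 (SE 0.254) for Dmkn. The edgeR adjusted p of these 6 was 0.0798 to 0.475. The median over the 10 genes was -1.05, compared with -0.0117 over all genes tested. In sums over a mixture of cells, fewer cells of a type and less RNA per cell cannot be told apart.

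**Figure D3:**
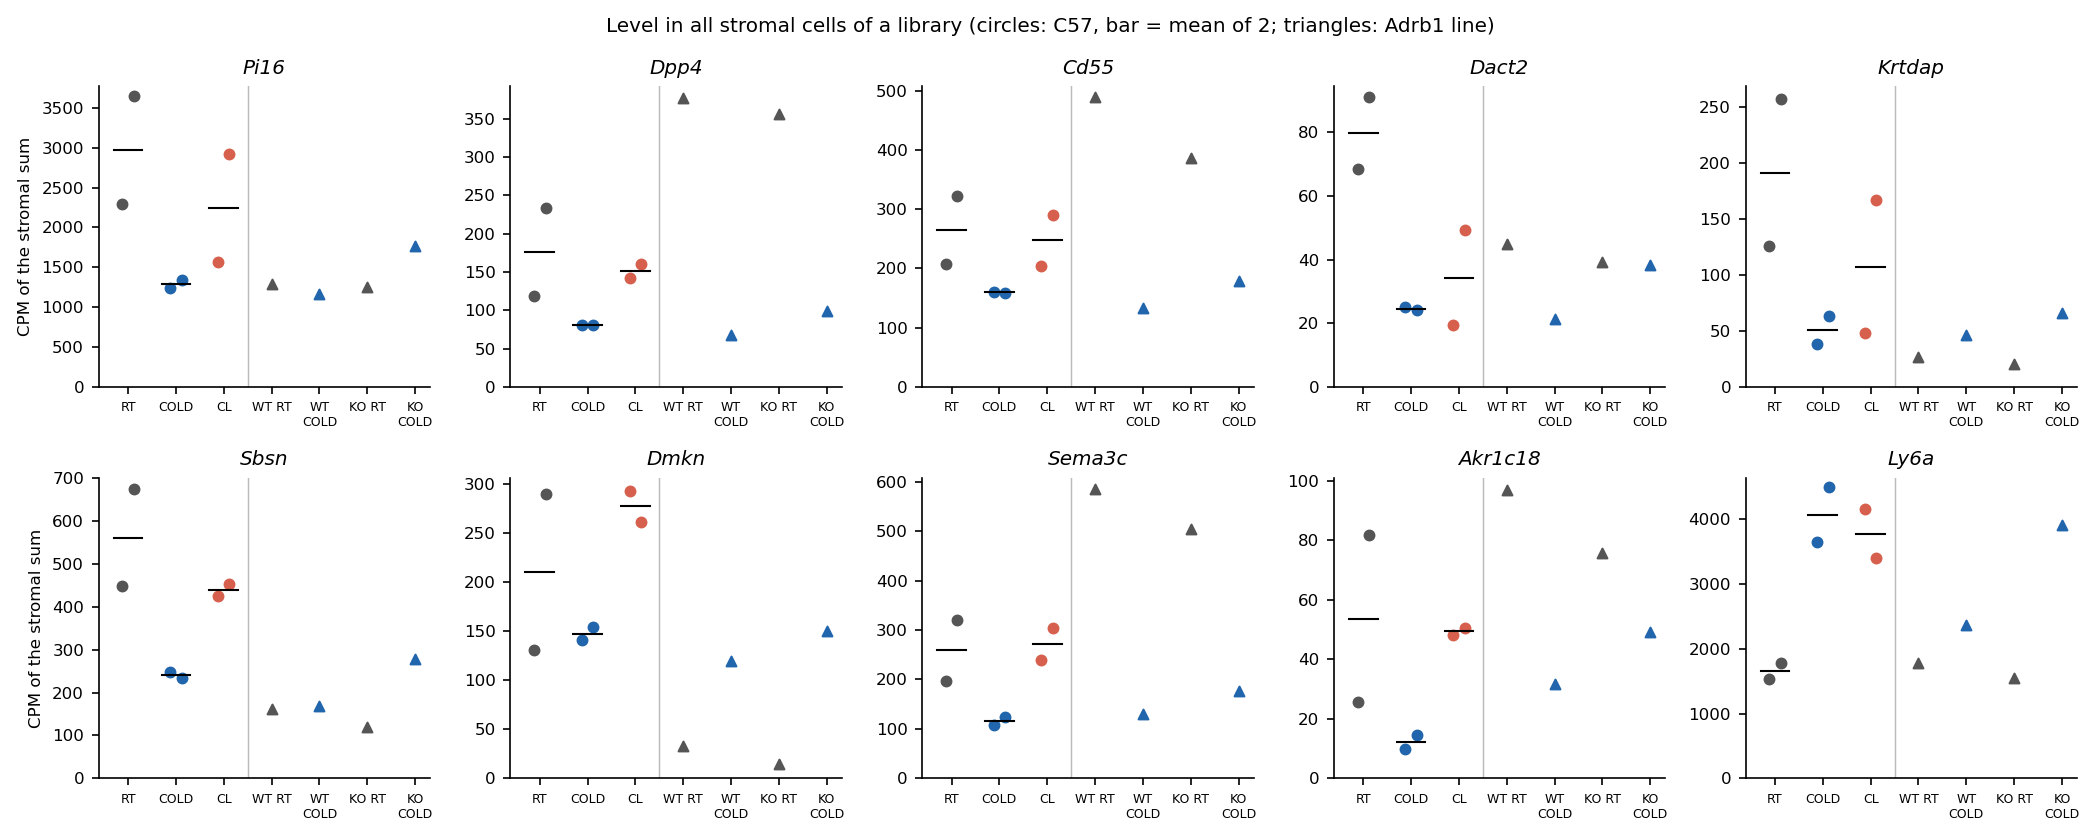
Levels of the 10 genes in the sums of all stromal cells, in CPM, by group. Circles are the libraries of C57BL/6J mice with a bar at the mean of 2, and triangles are the single libraries of the Adrb1 line; in COLD, 8 genes lie below both RT libraries of C57BL/6J mice, Dmkn lies between them and Ly6a above them.

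The makeup of the stromal cells differed in the same libraries. ASC2-like cells made up 38.0% and 35.5% of stromal cells at RT and 25.1% and 19.6% in COLD, 36.8% ± 1.81 against 22.4% ± 3.87 (SD, n = 2 each). Other classes made up more of the same COLD libraries, ASC1-like cells 46.7% and 41.8% at RT and 56.4% and 58.1% in COLD, and proliferating cells 0.307% and 0.0538% at RT and 8.04% and 5.86% in COLD, and a lower share does not show that there were fewer ASC2-like cells. The difference of -14.4 percentage points had p = 0.33 in an exact permutation test (two-sided), the smallest that 2 against 2 libraries can give. The genes were also counted cell by cell, which rests on the same counts as the stromal sums. Cells with at least 3 of the 9 genes other than Ly6a after thinning made up 23.2% and 24.96% of stromal cells at RT and 16.4% and 14.5% in COLD, a difference of -8.61 points (exact permutation p = 0.33). Such cells were 55.2% to 70.2% of the ASC2-like cells, 0.12% to 0.56% of the ASC1-like cells, 0.32% to 5.08% of the ASC3-like cells and 0% to 1.52% of the VEC-like cells. Of the stromal cells of this kind, 71.8% were ASC2-like in CL replicate 1, compared with 93.15% in CL replicate 2. In both COLD libraries the share of such cells among stromal cells was below that of both RT libraries, and the design cannot reach 0.05. The shares are of the cells recovered and carry exact binomial intervals that cover counting error only.

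**Figure D4:**
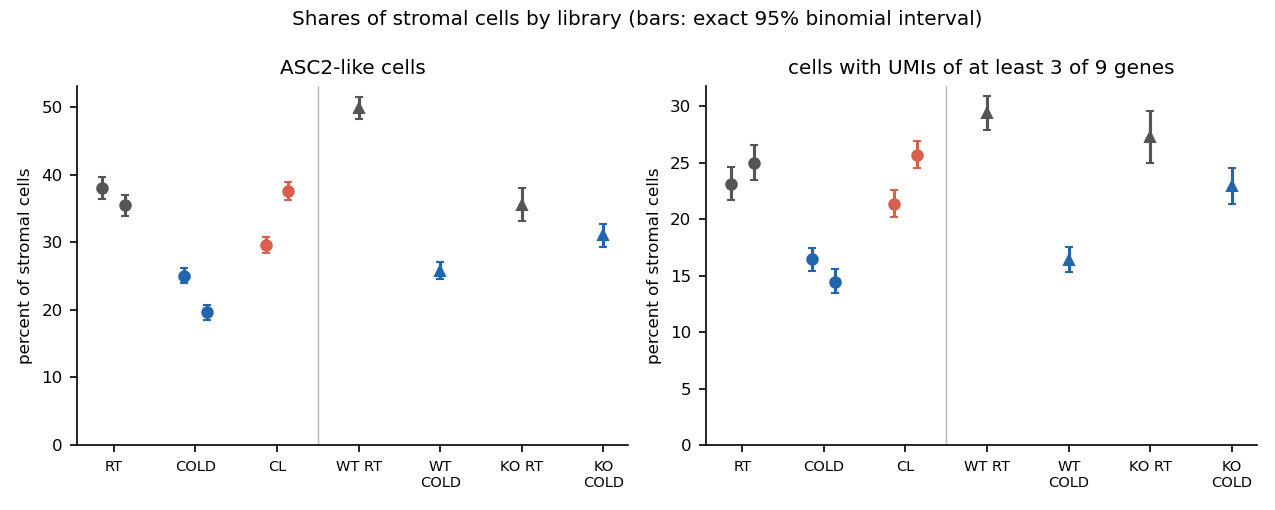
ASC2-like cells as a percentage of stromal cells (left) and stromal cells with counts of at least 3 of the 9 genes other than Ly6a after thinning to 1000 counts (right), for each library. Bars on points are exact 95% binomial intervals; on the left the COLD libraries of C57BL/6J mice are at 25.1% and 19.6% and the RT libraries at 38.0% and 35.5%.

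The next comparison asks whether the genes changed inside ASC2-like cells. No gene was called in COLD against RT (edgeR, adjusted p under 0.05), compared with 0.443% of 11052 genes tested. At an unadjusted p under 0.05 there was 1, Akr1c18 (-0.91, SE 0.308, adjusted p = 0.367), and DESeq2 called 1, Ly6a, and 0.837% of all genes. Pi16 was at 7318 and 10090 CPM in the RT libraries, compared with 7808 and 7562 CPM in the COLD libraries, and the log2 fold change was -0.08. Both COLD values lay between the RT values. Dpp4 was at 351.2 and 565.9 CPM in the RT libraries, compared with 497.7 and 431.1 CPM in the COLD libraries, and Sema3c at 595.8 and 823.1 CPM in the RT libraries, compared with 649.9 and 621.8 CPM in the COLD libraries. These genes overlapped as well, so that the groups of Pi16, Dpp4 and Sema3c, which lay apart in the stromal sums, overlapped once only ASC2-like cells were summed. Akr1c18 was at 80.7 and 230.5 CPM in the RT libraries, compared with 60.5 and 81.0 CPM in the COLD libraries, and its groups just touched. Over the 10 genes the median log2 fold change was -0.07. The class lay in different clusters in 1 library, RT replicate 2, where a shallow ASC2-like cluster held 1080 of 1319 cells, against 158 of 1363 in RT replicate 1, 209 of 1402 and 121 of 915 in COLD. In the main ASC2-like cluster alone (239 cells in RT replicate 2), Pi16 was at 7607 and 8200 CPM at RT and at 8353 and 7830 CPM in COLD. In the shallow cluster it was at 1728 and 10610 CPM at RT and at 2671 and 3735 CPM in COLD. The shallow cluster was thus below the main cluster in RT replicate 1 and both COLD libraries, and above it in RT replicate 2.

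For 4 genes the ASC2-like groups did not overlap, Dact2 and Krtdap being lower and Dmkn and Ly6a higher in both COLD libraries than in both RT libraries. In these directions lay 13.4% (lower) and 9.36% (higher) of all genes tested. Dact2 was at 212 and 241.9 CPM in the RT libraries, compared with 145.7 and 129.4 CPM in the COLD libraries. Krtdap was at 409.2 and 720.3 CPM in the RT libraries, compared with 237.8 and 372.8 CPM in the COLD libraries, while its neighbour Dmkn was at 411.5 and 804 CPM in the RT libraries, compared with 909.4 and 909 CPM in the COLD libraries. The neighbours Krtdap and Dmkn thus differed in sign, with log2 fold changes of -0.73 and 0.73. Neither passed the edgeR test (adjusted p = 0.721 and 0.580). In the main ASC2-like cluster alone, a choice of cells made after seeing the data, 5 genes lay apart: Dact2, Krtdap and Akr1c18 lower in COLD, as 12.2% of all genes tested, and Dmkn and Ly6a higher, as 15.4%. There Krtdap was at 425.9 and 564.5 CPM at RT and at 248.2 and 374.9 CPM in COLD, and Akr1c18 at 83.9 and 158.8 CPM at RT and at 62.2 and 82.5 CPM in COLD. Sbsn, their neighbour, overlapped between RT (1421 and 1892 CPM) and COLD (1519 and 1326 CPM).

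**Figure D5:**
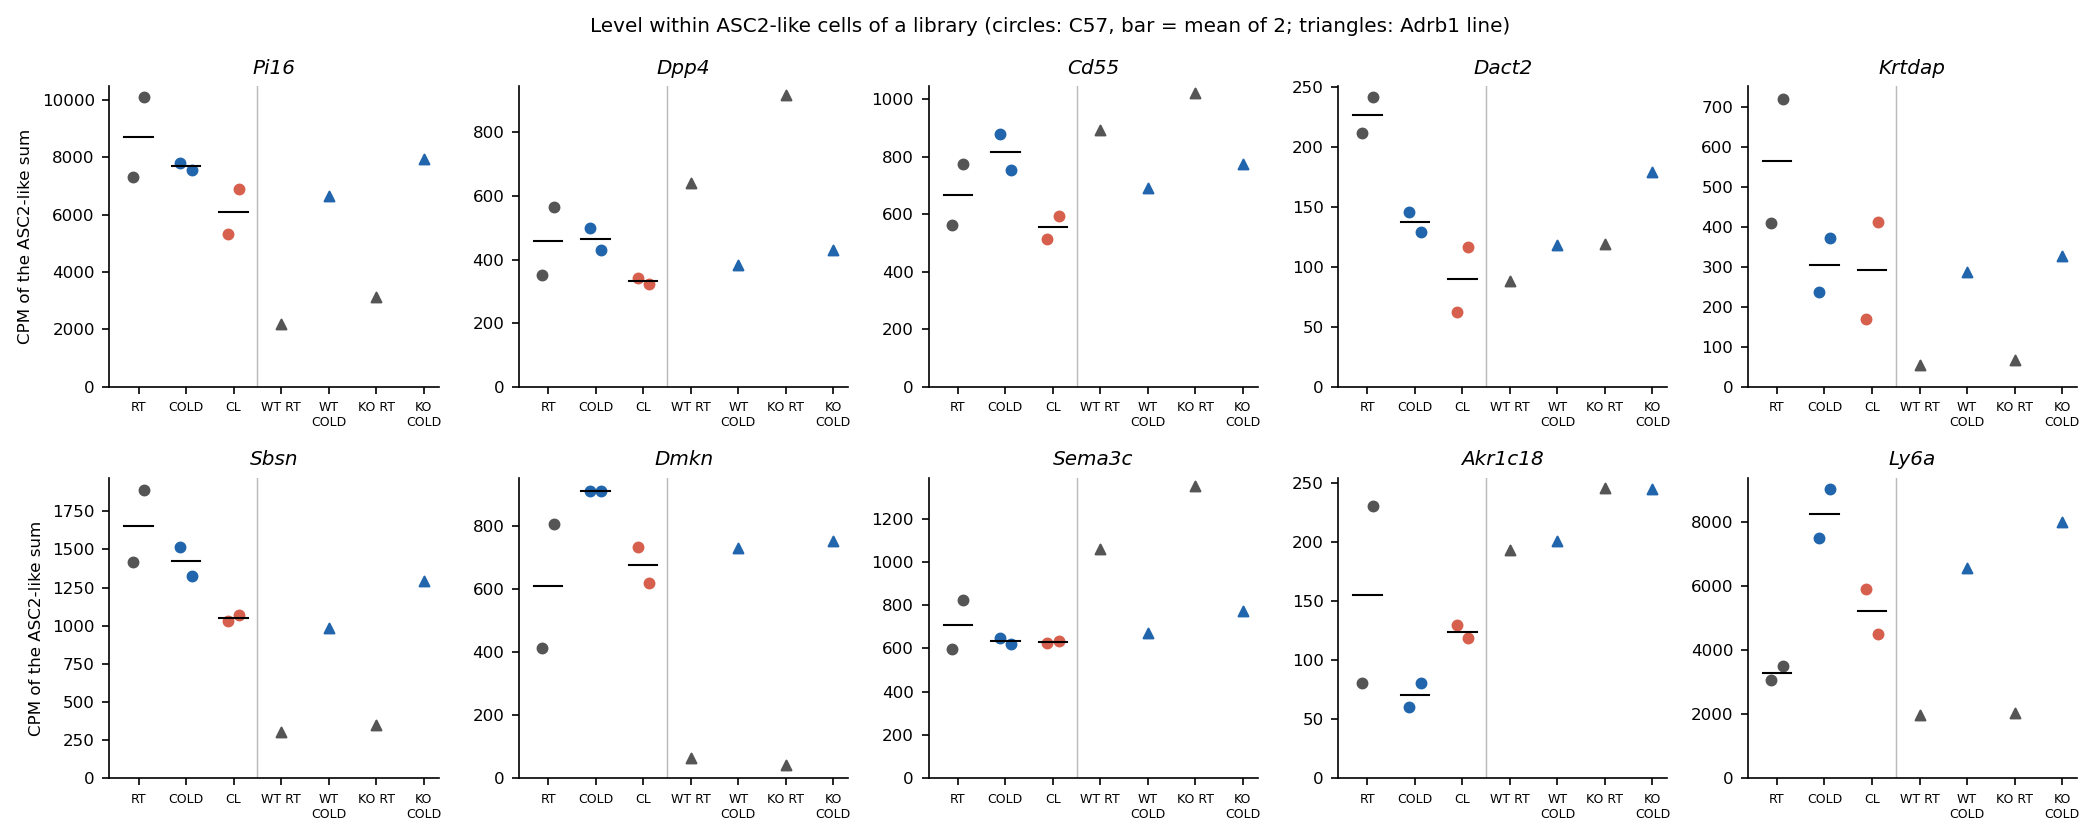
Levels of the 10 genes in the sums of ASC2-like cells, in CPM, by group, with circles for libraries of C57BL/6J mice, a bar at the mean of 2, and triangles for the single libraries of the Adrb1 line. Pi16 at RT (7318 and 10090 CPM) spans its COLD values, and the RT libraries of the Adrb1 line (kit version 3) are the lowest for Pi16, Sbsn, Dmkn and Krtdap.

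Within ASC2-like cells Ly6a had the largest log2 difference of the 10 genes in cold, and a difference was also seen in other classes. In ASC2-like cells it was at 3078 and 3515 CPM in the RT libraries, compared with 7501 and 9048 CPM in the COLD libraries. In ASC1-like cells it was at 675.4 and 388.1 CPM in the RT libraries, compared with 2940 and 3461 CPM in the COLD libraries. In VEC-like cells, outside the stroma, it was at 2076 and 1561 CPM in the RT libraries, compared with 4479 and 5385 CPM in the COLD libraries. The COLD libraries were the higher ones in each class. Ly6a is known to be inducible by interferon, and a part of interferon in this difference was not tested. The edgeR log2 fold change was 1.38 (SE 0.715, adjusted p = 0.284) in the stromal sums, 1.40 (SE 0.737, adjusted p = 0.616) in ASC2-like cells and 2.60 (adjusted p = 0.0719) in ASC1-like cells, and none passed the threshold. The value in ASC1-like cells varied with the RT library left out, at 3.54 without RT replicate 1 and 2.04 without RT replicate 2. Each of these fits leaves 1 RT library. In the CL libraries Ly6a was at 5932 and 4509 CPM in ASC2-like cells, again above both RT libraries.

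Infusion of CL asks for the effect of β3 stimulation without cold. None of the 10 genes was called in the stromal sums (edgeR, with 0.0720% of all genes called), and 1, Dmkn, had an unadjusted p under 0.05 (log2 fold change 0.75, adjusted p = 0.277). DESeq2 called 1, Ly6a, and 3.18% of all genes. Dact2 lay below both RT libraries (19.3 and 49.3 CPM in CL; 25.5% of all genes lay below) and Ly6a above (4162 and 3396 CPM; 5.97%). With single libraries left out, the log2 fold change ran from -1.90 to -0.28 for Dact2 and from -1.79 to 0.29 for Krtdap. The lowest value of each came without CL replicate 2, which leaves 1 CL library. For the other genes RT and CL overlapped, and Pi16 was at 1566 and 2925 CPM in CL. CL replicate 1, the library with many unnamed stromal and VEC-like cells, was the lower one for Pi16, and without it the log2 fold change of Pi16 was 0.42. ASC2-like cells were 29.6% and 37.6% of stromal cells in CL (33.6% ± 5.65, SD, n = 2), -3.18 points from RT (exact permutation p = 0.6667). The share of cells with at least 3 of the 9 genes was 21.4% and 25.7%, -0.52 points from RT (exact permutation p = 1), and this sign depended on single libraries and on the depth used.

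In ASC2-like cells after CL, no gene was called by edgeR (0.0362% of all genes) or by DESeq2 (0.545%), and 1 of the 10, Dact2, had an unadjusted p under 0.05. Dact2 was at 62.3 and 116.9 CPM in CL, below the 212 and 241.9 CPM at RT, which was -1.07 on the log2 scale (SE 0.343, adjusted p = 0.460). With single libraries left out, the log2 fold change of Dact2 ran from -1.77 (without CL replicate 2, which leaves 1 CL library) to -0.62. Pi16, Dpp4 and Sbsn also lay below both RT libraries, as did 24.4% of all genes tested, and only Ly6a lay above (4.61%). Sbsn was at 1028 and 1070 CPM in CL, and Dpp4 at 341.5 and 322.8 CPM, just under the lower RT library (351.2 CPM). The clusters that held the class differed here too, because the shallow ASC2-like cluster held 32.9% of the ASC2-like cells of CL replicate 1 and 8.40% of those of CL replicate 2, compared with 11.6% and 81.9% at RT. In the main ASC2-like cluster alone, Dpp4 overlapped (358.9 and 534.2 CPM at RT, 388.5 and 326.8 CPM in CL). Pi16, Dact2, Krtdap and Sbsn lay below both RT libraries there, as did 23.6% of all genes tested, and Dmkn and Ly6a lay above (7.66%). The log2 fold changes of the 10 genes had a median of -0.10.

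In ASC1-like cells, where the genes other than Ly6a stood near the level in VEC-like cells, small differences were called. Different clusters held most of this class in the groups. A cluster led by Saa3, Cxcl10 and Ccl2 held 81.4% and 65.2% of ASC1-like cells in COLD, 61.2% and 8.98% in CL and 3.11% and 3.02% at RT, and a shallow cluster held 72.5% in RT replicate 2. In cold, Dmkn was at 2.66 and 3.42 CPM in the RT libraries, compared with 6.21 and 9.02 CPM in the COLD libraries, a rise of 1.44 (SE 0.372) on the log2 scale (edgeR adjusted p = 0.0378). It was the 1 gene of the 10 that was called, compared with 11.7% of all genes tested. Both COLD libraries were above both RT libraries for 4 genes (Pi16, Sbsn, Dmkn and Ly6a), compared with 16.0% of all genes tested, and below them for 3 (Dpp4, Cd55 and Dact2), compared with 24.2%. In the VEC-like sums Dmkn was at 5.48 and 1.77 CPM in the RT libraries, compared with 6.20 and 1.28 CPM in the COLD libraries. Without the cells of highest doublet scores, the rise was 0.31 (adjusted p = 0.653), and the call was also lost without any 1 of the RT and COLD libraries. After CL, 2 of 10 were called, compared with 1.85%. Pi16 was at 34.5 and 24.8 CPM in the RT libraries, compared with 106 and 122.2 CPM in the CL libraries, a rise of 2.06 (SE 0.346, adjusted p = 0.0215). Sema3c was at 10.3 and 14.1 CPM in the RT libraries, compared with 22.5 and 27.7 CPM in the CL libraries, a rise of 1.31 (SE 0.272, adjusted p = 0.0484). Both CL libraries were above both RT libraries for 6 of the 10 genes (Pi16, Cd55, Sbsn, Dmkn, Sema3c and Ly6a), compared with 7.28% of all genes tested, and below them for Dact2, compared with 23.1%. Of the 10 log2 fold changes 8 were positive (median 1.11), whereas 6382 of all 12761 genes tested had a negative one. Among the 10, 5 genes had an unadjusted edgeR p under 0.05, a count given without the share of all genes. Pi16 in VEC-like cells was at 45.0 and 6.20 CPM in the RT libraries, compared with 44.4 and 99.3 CPM in the CL libraries. Mural cells, which are not stromal, had higher means of these genes in CL as well. Their RT and CL means were 84.75 and 208.9 CPM for Pi16, 12.7 and 39.6 for Sema3c and 16.5 and 64.7 for Sbsn. For Dmkn they were 5.29 and 38.0 CPM, and for Cd55 20.2 and 30.1 CPM. VEC-like means were higher in CL for Sbsn (12.9 and 28.1 CPM) and Dmkn (3.62 and 10.5 CPM), but not for Cd55 (27.3 and 26.0 CPM). The part of cell-free RNA in the rises was not tested. The rise of Pi16 was 2.81 without RT replicate 1 and 1.64 without RT replicate 2. Neither gene was called without RT replicate 2 or with coarser clusters (resolution 0.5), and Sema3c was not called without RT replicate 1 or without CL replicate 2.

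Whether ASC2-like and ASC1-like cells responded differently was tested with a term for the difference, with the library as a block. In cold, Cd55 was the 1 gene of the 10 that passed, compared with 6.58% of all genes. Cd55 was at 561.3 and 773.1 CPM in the RT libraries, compared with 877.8 and 754.5 CPM in the COLD libraries in ASC2-like cells, and at 45.1 and 50.9 CPM in the RT libraries, compared with 32.2 and 31.0 CPM in the COLD libraries in ASC1-like cells. The response was higher in ASC2-like cells by 0.84 (SE 0.234) on the log2 scale (edgeR adjusted p = 0.0478), and neither class passed on its own. With single libraries left out the difference ran from 0.69 to 1.04. After CL, Sema3c passed with a difference of -1.22 (SE 0.261, adjusted p = 0.0396), compared with 1.26% of all genes, and Pi16 was at -2.43 (adjusted p = 0.0524), which was called without RT replicate 1 (-2.97, adjusted p = 0.00273) or RT replicate 2 (-1.97, adjusted p = 0.0204). Of the 10 differences in the response to CL, 9 were negative (median -1.13), compared with 50.4% of all genes tested. In cold 7 of 10 were negative (median -0.61), compared with 50.7% of all genes tested. The differences of Sema3c and Pi16 rest on the low ASC1-like levels given above, and the ASC1-like COLD level of Cd55 was near that in VEC-like cells. In ASC3-like cells, 7 of the 10 genes had enough counts to be tested, and none was called in cold or CL (edgeR, 0.552% and 0.110% of all genes). Pi16 was at 2.07 in cold (adjusted p = 0.132).

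The libraries of the Adrb1 line are single, so their values are given without a test. At RT, with kit version 3, Pi16 in ASC2-like cells was at 2182 CPM in WT and 3114 CPM in KO. The mean of both was 0.304 of the C57BL/6J mean at RT. The same ratio was 0.0883 for Dmkn, 0.108 for Krtdap and 0.196 for Sbsn. It was above 1 for Dpp4 and Sema3c (1.70 each), Cd55 (1.43) and Akr1c18 (1.41). Dact2 (0.458) and Ly6a (0.61) lay between. In COLD, where both lines were on kit version 2, the ratio of the line to C57BL/6J was 0.949 for Pi16, 0.814 for Dmkn, 1.01 for Krtdap, 0.799 for Sbsn, 0.877 for Dpp4 and 1.14 for Sema3c, and only Akr1c18 stood apart at 3.15 (200.8 and 245.1 CPM against 60.5 and 81.0 CPM). Sex and tamoxifen also differ between the lines, and their part was not tested. The cluster led by Col6a5 had 637 of its 775 cells (82.2%) in the WT RT library, 72 in KO RT, 53 in WT COLD, 12 in KO COLD and 1 in CL replicate 1. In WT RT it held 942.1 CPM of Pi16, and without it that library was at 3175 CPM.

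The genotypes were not tested against each other and are given by their values. In ASC2-like cells the ratio of KO to WT was 0.64 (Dmkn) to 1.43 (Pi16 and Dpp4) at RT and 1.03 (Dmkn) to 1.52 (Dact2) in COLD. Without the cluster led by Col6a5, the ratio at RT was 0.99 for Pi16 and ran from 0.574 (Dmkn) to 1.26 (Dpp4). ASC2-like cells were 49.9% of stromal cells in WT RT, 25.8% in WT COLD, 35.6% in KO RT and 31.0% in KO COLD. Cells with at least 3 of the 9 genes were 29.4%, 16.4%, 27.2% and 22.9% in the same order. Without the same cluster, ASC2-like cells were 39.5% in WT RT, 25.01% in WT COLD, 32.4% in KO RT and 30.8% in KO COLD, so the COLD library of KO lay little below its RT library. Temperature and kit version cannot be told apart in these values.

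Across the sums of 16 classes in the Lin- libraries (109 sums, which share libraries and depth), the genes whose levels were most like those of Pi16 were Pcolce2 (Pearson r = 0.841 of log2(CPM + 1)), 1700019D03Rik (0.835), Has1 (0.833), Cmah (0.830), Adgrd1 (0.827), Igfbp6 (0.824), Emilin2 (0.812) and Gfpt2 (0.809). Among 15945 genes, Dpp4 and Cd55 ranked 7 and 8 (0.816 each), Sema3c 15, Sbsn 28, Akr1c18 43, Dact2 59, Krtdap 79 and Dmkn 155. Ly6a ranked 505 (0.502). Of the 9 genes, Dpp4, Cd55 and Sema3c were thus nearest to Pi16 and Ly6a the furthest. It describes these sums only.

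A wider list of 26 ASC2 genes, 12 of which also served to name the clusters, was read in the same fits. In the stromal sums after cold, 2 of 26 were called lower, with 4.27% of all genes called in either direction: Opcml, a cell adhesion gene of the IgLON family (-1.93, edgeR adjusted p = 0.0311), and Aldh1a3, a retinoic acid synthesising enzyme (-1.34, adjusted p = 0.0378). None was called higher. Of the 26 log2 fold changes, 25 were negative (median -1.07), compared with 51.1% of all genes tested (median -0.0117). In CL none of the 26 was called in the stromal sums by edgeR, with 0.0720% of all genes called. In ASC2-like cells none was called in cold or CL, with 0.443% and 0.0362% of all genes called. In ASC1-like cells, 25 of the 26 were tested. In cold, 3 were called higher and 2 lower, with 11.7% of all genes called, and after CL 3 were called higher and 0 lower, with 1.85% of all genes called. Has1, a hyaluronan synthase, rose by 2.32 in cold and 2.45 after CL (edgeR adjusted p = 0.000362 and 0.00143), Fn1, which encodes fibronectin, by 1.95 and 2.10 (adjusted p = 0.00726 and 0.0175), and Cd248, endosialin, by 1.196 and 1.79 (adjusted p = 0.0293 and 0.0197). Pcsk6, a proprotein convertase, fell by 1.07 in cold (adjusted p = 0.0468). In the test of whether the response differed between ASC2-like and ASC1-like cells, which says nothing of the levels of the classes, 4 of 26 were called in cold, with 6.58% of all genes called. The log2 response to cold was smaller in ASC2-like than in ASC1-like cells by 2.38 for Has1, 2.66 for Fn1 and 1.43 for Cd248, genes that rose in ASC1-like cells and had log2 fold changes of -0.05, -0.63 and -0.18 in ASC2-like cells. For Pcsk6, which fell in ASC1-like cells, the difference in response was 0.88 (edgeR adjusted p = 0.0282). After CL the response of 9 of 26 was called lower in ASC2-like than in ASC1-like cells and that of 0 higher, with 1.26% of all genes called. All 26 differences in response were negative (median -1.22), compared with 50.4% of all genes. Bmp7 is 1 of these 26 but had too few counts to be tested in ASC1-like cells alone, so its difference carries little information on that class. Among the 9, the difference was -2.69 for Has1, -2.21 for Fn1 and -1.87 for Wnt2, a Wnt ligand (edgeR adjusted p = 0.000508, 0.0106 and 0.0377).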

How the data were processed

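The deposited matrices hold expected counts: the authors counted UMIs with Cell Ranger 3.0.1 (mm10) and subtracted cell-free RNA with SoupX, so 97.2% to 99.6% of the Lin- entries are not whole. SoupX can leave or remove low counts of the 10 genes outside ASC2, so VEC-like levels are given beside them. Cells with less than 10% mitochondrial counts, less than 15000 counts and more than 100 genes (Lin-) were kept. No doublets were removed, except in an alternative without the 6% highest Scrublet scores per library. Clusters came from scanpy 1.11.5 and leidenalg 0.10.2 (2000 variable genes, 30 principal components, 30 neighbours, 6 cohorts, resolution 1) and were named from at least 3 markers raised at least 2-fold in at least 10% of cells. A stromal cluster had at least 5 of 8 pan-stromal markers in over 50% of its cells.

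Class sums per library were rounded and fitted with edgeR 4.0.16 in R 4.3.3 (TMM, filterByExpr, quasi-likelihood test, two-sided) over the 6 C57BL/6J libraries, with p-values adjusted over all genes and a threshold of 0.05. The p-values measure only the spread between these libraries. The scripts were tested on simulated data. DESeq2 1.42.0 and other settings were alternatives. According to the study's methods, C57BL/6J libraries of the same number come from the same experiment, so the numbers pair them. The difference of replicate 1 from replicate 2 correlated across genes, in the stromal sums, at 0.269 (RT and COLD), 0.114 (RT and CL) and 0.424 (COLD and CL). The chi-square per degree of freedom between replicates was 40.6 to 103.5, so they were separate libraries. Promoters and positions came from RefSeq (GRCm38.p6).

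The 10 genes, the wider list and the tests were chosen with earlier results of these data known. Named beside the 10 were the 8 genes most like Pi16, up to 3 rising and 3 falling genes of the wider list per comparison, the 2 neighbours on each side of adjacent members, Adrb1 and markers of other cell types. The other genes that lead an unnamed cluster were named after their values were seen.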

Additional observations from a re-analysis of the deposited data

Results flagged for a closer look

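The test of the difference between the responses of ASC2-like and ASC1-like cells was past the threshold for 1 of the 10 genes in cold, compared with 6.58% of all genes tested, and for 1 of 10 after CL, compared with 1.26%. Cd55, the complement regulator, differed in its cold response by 0.84 on the log2 scale, higher in ASC2-like cells. Its ASC1-like mean was 48.0 CPM at RT and 31.6 CPM in COLD, compared with 27.3 and 33.6 CPM in VEC-like cells. Sema3c, the secreted semaphorin, differed in its CL response by -1.22, lower in ASC2-like cells. Both are flagged because the response in 1 class differs from that in the other. Cd55 was no longer called when RT replicate 1 or either COLD library was left out, and Sema3c was no longer called when either RT library or CL replicate 2 was left out. The Sema3c difference rests on ASC1-like levels of 10.3 to 27.7 CPM, compared with 5.31 to 15.04 CPM in the VEC-like cells of the RT and CL libraries. In mural cells the mean of Sema3c was 12.7 CPM at RT and 39.6 CPM in CL.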

How the results depend on the processing

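Of the settings for single genes other than left-out libraries, 499 values kept their direction and their side of the threshold, 51 came past it, 10 fell short of it and 17 turned sign. The cause was not tested for any of them. Of the 10 genes in the stromal sums after cold (1 called), DESeq2 called 7 (9.13% of all genes), library totals without TMM 8 (6.08%), no filter on low counts 5 (11.4%), the replicate block 3 (11.3%), the 2 groups alone 5 (16.5%) and the sums with the differentiating cluster, an alternative added after seeing the data, 0 (1.83%). After CL (0 called), DESeq2 (3.18%), no TMM (3.19%) and no filter (5.83%) called 1 each. In ASC2-like cells after cold (0 called) the same 3 settings called 1 each (0.837%, 1.33% and 2.36%), and after CL (0 called) no TMM (0.932%) and no filter (1.92%) called 1 each, Dact2. In ASC1-like cells after cold (1 called), DESeq2 called 2 (9.29%), no filter 4 (13.0%), and the sums without high doublet scores (12.5%) or at resolution 0.5 (12.0%) called 0. After CL (2 called), DESeq2 called 4 (2.88%), no filter 5 (4.75%), cells of at least 1000 counts 1 (1.47%) and resolution 0.5 called 0 (1.87%). For the difference between these classes, no filter called 3 in cold (6.78%, with 1 in the fit as reported), and after CL (1 called) no TMM called 2 (1.35%), no filter 5 (2.75%) and resolution 0.5 called 0 (1.16%). The replicate block changed no other count of calls. With each library left out in turn, the counts were 0 in the stromal sums after cold and 0 to 2 after CL, 0 and 0 to 1 in ASC2-like cells, 0 to 2 and 0 to 3 in ASC1-like cells, and 0 to 2 and 0 to 3 for the difference. Where 1 library was left in a group, it was assumed to vary like the others.

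The difference in the share of cells with at least 3 of the 9 genes after CL (-0.52 points) turned sign to 5.80 at 2000 counts per cell, 6.40 without thinning, 3.61 for at least 2 genes and 3.34 in cells with a Pdgfra count, and ran from -2.69 to 1.65 with single libraries left out. That of ASC2-like cells after CL (-3.18) was 3.26 without the proliferating and unnamed clusters, added after seeing the data, and ran from -7.17 to 0.81. After cold, the ranges were -9.59 to -7.62 and -17.1 to -11.7, with no change of sign.

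Log2 fold changes that turned sign were all short of the threshold in the fit as reported. In the stromal sums after CL, those without TMM were -0.22 (Dpp4), -0.10 (Cd55) and -0.11 (Akr1c18), those in cells with a Pdgfra count 0.31 (Pi16), 0.33 (Krtdap) and 0.60 (Sbsn), and Dpp4 with the differentiating cluster -0.039. With single libraries left out they ran from -0.75 to 0.42 (Pi16), -0.10 to 0.34 (Dpp4), -0.20 to 0.57 (Cd55), -1.79 to 0.29 (Krtdap), -0.23 to 0.12 (Sbsn) and -0.12 to 0.90 (Akr1c18). In ASC2-like cells after cold, they ran from -0.16 to 0.00068 (Pi16) and -0.14 to 0.021 (Sema3c). After CL, Cd55 was 0.011 with DESeq2 and 0.013 without a filter, Sema3c -0.17 and Akr1c18 -0.32 without TMM, and the ranges were -0.58 to 0.023 (Pi16), -0.25 to 0.20 (Cd55), -0.056 to 0.21 (Sema3c) and -0.35 to 0.53 (Akr1c18). In ASC1-like cells after cold, Krtdap was 0.037 in cells of at least 1000 counts, Akr1c18 -0.11 with the replicate block and -0.024 at resolution 0.5, and the ranges were -0.94 to 0.35 (Krtdap) and -0.45 to 0.11 (Sema3c). After CL, Akr1c18 was 0.28 at resolution 0.5, and the ranges were -0.010 to 1.41 (Dpp4), -0.82 to 1.06 (Krtdap) and -5.42 to 0.68 (Akr1c18). For the difference between classes, Krtdap in cold was 0.030 and Akr1c18 after CL -0.14 at resolution 0.5, and the ranges were -0.36 to 0.14 (Dact2), -0.13 to 0.35 (Sema3c) and -1.49 to 0.17 (Akr1c18) in cold and -0.41 to 4.99 (Akr1c18) after CL.

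Without TMM the median of all genes shifted by -0.127 (cold) and -0.282 (CL) in the stromal sums, and by -0.0921 and -0.250 in ASC2-like cells, and changes under that scaling are relative to it. Groups of 2 libraries, with 1 of the 2 RT libraries shallow, set the precision. Low levels in ASC1-like cells stood near those in VEC-like cells, and the part of cell-free RNA in them was not tested.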

Other observations

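Proliferating cells were part of the stromal sums and shares, but were not compared as a class of their own for want of cells in some groups. They held the genes at levels that differed between the treatments. The 9 genes other than Ly6a were each higher in both CL libraries (192 and 54 proliferating cells) than in both COLD libraries (449 and 273 cells), with ratios of the means of 3.52 to 10.5. Of the 10798 genes with at least 20 counts in these sums, 20% were higher in both CL libraries than in both COLD libraries and 24% were lower. Pi16 was at 1937 and 1965 CPM in CL and at 202 and 508.5 CPM in COLD. Dmkn was at 450.2 and 445.8 CPM in CL and at 29.7 and 72.2 CPM in COLD. Sema3c was at 200.1 and 363.5 CPM in CL and at 29.3 and 62.4 CPM in COLD. In the Adrb1 line, Pi16 was at 177.3 CPM in the proliferating cells of WT COLD and at 34.4 CPM (41 counts) in those of KO COLD. In the same order Dmkn was at 30.2 and 9.23 CPM, Sema3c at 31.4 and 16.8, Akr1c18 at 8.16 and 3.36, and Cd55 at 33.5 and 23.5. Dpp4 was at 11.5 and 10.1 CPM, Dact2 at 5.74 and 5.03, Sbsn at 34.7 and 37.8, Krtdap at 9.06 and 12.6, and Ly6a at 1097 and 1928. The KO COLD values rest on few counts, with 4 for Akr1c18, 6 for Dact2, 11 for Dmkn and 12 for Dpp4. The counting intervals of WT COLD and KO COLD overlapped for all genes except Pi16, Dmkn and Ly6a. These differences between proliferating cells were noticed in the data and were not tested.

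In ASC3-like cells, Pla1a, a phospholipase of the wider list, was called higher in cold (log2 fold change 1.29, edgeR adjusted p = 0.0264) and after CL (1.505, adjusted p = 0.0261). In ASC1-like cells after cold, Cadm3, an adhesion molecule of the wider list, was called lower (-0.88, edgeR adjusted p = 0.0453).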
